A study of Mus musculus with 11 samples.

Results

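The effect of germ cell Nrf1 deletion on gene expression where Dnmt3C is absent was measured in whole testes of C57Bl6/J mice at postnatal day 5 by poly-A RNA sequencing. The 3 dKO libraries (Dnmt3C KO/KO with Nrf1 deleted by Ddx4-Cre) were compared with the 3 Dnmt3C KO libraries (Dnmt3C KO/KO), which are 6 of the 11 libraries of the series. All gene rows of the count table of this pair were the members, and they numbered 31381 of the 33188 genes in the series. The other 5 libraries, 3 of Nrf1 cKO and 2 of WT, give the same deletion with Dnmt3C intact and share no sample with the 6. The labels write the deleted genotype as Nrf1KO/KO, and the study's methods as a floxed allele over a knockout allele with the Ddx4-Cre (Vasa-Cre) driver, which is active in germ cells from before birth. Somatic cells therefore keep Nrf1 on the floxed allele, while Dnmt3C is absent from every cell of all 6 libraries. Which Nrf1 alleles or Cre the Dnmt3C KO mice carried is not given in the text of the sources used here. The study shows a breeding scheme and representative genotyping gels as images, which were not read.

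NRF1, nuclear respiratory factor 1, is a transcription factor that binds GC-rich promoters, among them many promoters of nuclear genes for mitochondrial proteins, and its binding is blocked by DNA methylation of its site. DNMT3C is a rodent DNA methyltransferase that methylates young retrotransposons in fetal male germ cells, and male mice without it are sterile. At postnatal day 5 the testis cords hold spermatogonia among a large majority of Sertoli cells, with peritubular, Leydig, endothelial and immune cells around them.

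Each library held between 31288561 and 39365841 counts. The sample titles call the source germ cells, and the extraction protocol and the study's methods call it whole testis. Levels are given as CPM, counts scaled to the size of each library with TMM factors. Somatic genes were present throughout: the Sertoli cell gene Clu was between 2455 and 2754 CPM over the 6 libraries. In such bulk samples, fewer cells of a type and less RNA per cell cannot be told apart. Libraries stood apart within their groups. The mean log2 CPM of 30 germ cell identity genes was highest in Dnmt3C KO replicate 1 (4.58) and lowest in dKO replicate 3 (2.34). Short transcripts were lowest against long ones in dKO replicate 2, as given with the mitochondrial genes.

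The gene counts do not check the genotype labels. The study itself verified genotypes by PCR and reported no NRF1 immunofluorescence in germ cells of dKO and Nrf1 cKO testes. Nrf1 (chromosome 6, 30047988 to 30153458 of GRCm38) was at 56.8, 60.8 and 60.8 CPM in the dKO libraries and at 45.0, 55.6 and 50.3 CPM in the Dnmt3C KO libraries. The groups did not overlap, and dKO was the higher, with a log2 fold change of 0.24 (standard error from the fit, SE, 0.11; unadjusted p = 0.054 and adjusted p = 0.675 in edgeR's quasi-likelihood test). The count sums the whole gene over all cells of the testis, so that a deletion in germ cells need not show in it. Dnmt3c was between 3.55 and 4.94 CPM in dKO, between 3.02 and 4.51 CPM in Dnmt3C KO and at 4.16 and 4.87 CPM in WT. These ranges overlapped, and which exons the knockout allele lacks was not examined here.

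NRF1 binds a palindromic site with the core CGCATGCG, and 4 promoters with this core are shown because their genes recur below: 2 of genes called lower in dKO (Gpat2 and Tuba3b), 1 with a small unadjusted p (Zfp428), and that of Cycs, a classical NRF1 target. The stretches come from RefSeq promoter windows on GRCm38.p6, from 250 bases before to 50 after a gene's start, in the direction of the gene, with the core in capitals. Gpat2 lies on the + strand (chr2:127425133-127425162), with the core beginning 55 bases upstream of the start. Tuba3b lies on the + strand (chr6:145615723-145615752), 229 bases upstream of the RefSeq start. Zfp428 lies on the + strand (chr7:24506864-24506893), 212 bases upstream. Cycs lies on the - strand (chr6:50566612-50566641), 61 bases upstream. The fifth stretch, of the called gene Tubg2 on the + strand (chr11:101155835-101155864), 38 bases upstream, holds the core with its middle T exchanged, which is the form matched by CGCANGCG.
Gpat2: agctgctgaggCGCATGCGcagagcccagt
Tuba3b: tccccaggtcaCGCATGCGcagaccaggga
Zfp428: agtcccctacaCGCATGCGctttatttttc
Cycs: ccatgctagctCGCATGCGcgcgcacaaac
Tubg2: atgttaccgtgCGCAAGCGcacatagtgac

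The question of the comparison was which genes differ when Nrf1 is deleted in germ cells that already lack DNMT3C. In the main test, edgeR's quasi-likelihood test with Benjamini-Hochberg adjustment over genes and transposable element (TE) subfamilies together, 19932 genes were tested and 0 (0%) reached an adjusted p under 0.01. The smallest adjusted p of a gene was 0.398. At an unadjusted p under 0.05 there were 844 genes lower in dKO (4.23%) and 617 higher (3.10%), and the median log2 fold change of all genes was 0.01, with 48.3% of them below 0. All 3 dKO libraries lay below all 3 Dnmt3C KO libraries for 1425 genes (7.15%) and above them for 1324 (6.64%). The DESeq2 Wald test, the tool the study used, called 17 of 25784 genes (0.0659%), 16 lower in dKO and 1 higher. A gene is called below, lower or higher, only where DESeq2 did so, and no such call was made by edgeR.

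**Figure D1:**
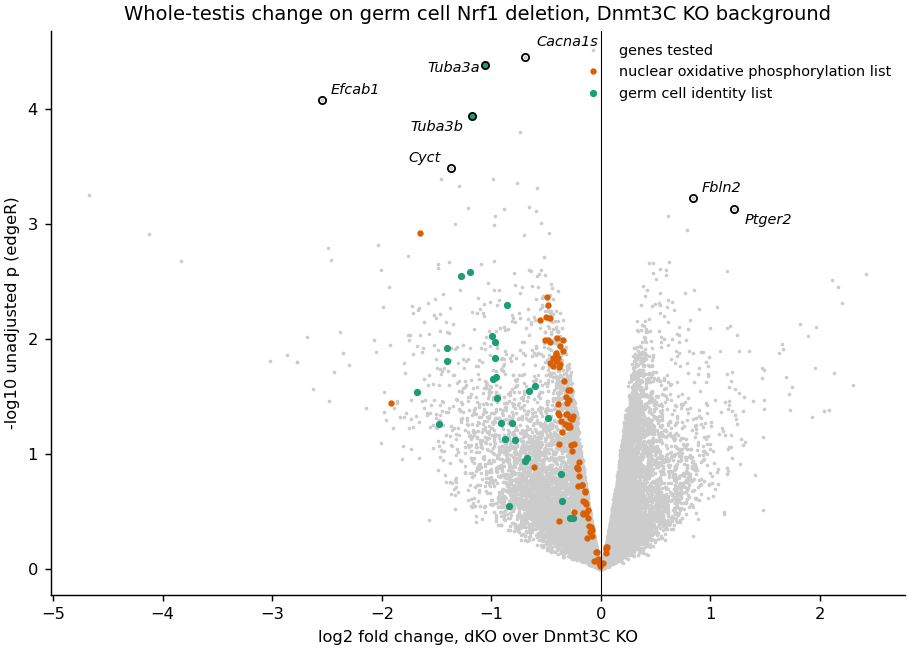
Each dot is 1 of the 19932 genes tested, with the log2 fold change of dKO over Dnmt3C KO on the x axis and -log10 of the unadjusted edgeR p on the y axis; green dots are the germ cell identity list, orange dots the nuclear oxidative phosphorylation list, and circles mark genes named in the text. The 29 green dots all lie left of 0, and the genes with the smallest p, Cacna1s and Tuba3a, are lower in dKO.

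The called genes with the smallest adjusted p were a pair of alpha-tubulin genes of the germ line. Tuba3a (chromosome 6, 125278274 to 125286042) was at 68.7, 72.4 and 49.5 CPM in dKO and at 137, 121 and 137 CPM in Dnmt3C KO. All dKO values lay well below all Dnmt3C KO values, with a log2 fold change of -1.06 (SE 0.15; adjusted p = 0.398 in edgeR and 1.13e-06 in DESeq2). Tuba3b (chromosome 6, 145615757 to 145621479) was at 69.2, 65.6 and 39.5 CPM in dKO and at 131, 126 and 138 CPM in Dnmt3C KO, a log2 fold change of -1.18 (SE 0.19; adjusted p = 0.398 in edgeR and 3.43e-06 in DESeq2). The 2 genes have nearly identical coding sequences, so the division of reads between them is uncertain. They were called in each DESeq2 fit that left out 1 library, and with all 11 libraries in 1 fit Tuba3a was the only call.

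Other called genes have known roles in germ cells. Cyct, the testis form of cytochrome c, was at 4.16, 3.52 and 3.33 CPM in dKO and at 12.4, 6.84 and 9.12 CPM in Dnmt3C KO, a log2 fold change of -1.37 (SE 0.25; adjusted p = 0.000439 in DESeq2). Cox7b2, the testis form of a cytochrome c oxidase subunit, was at 1.21, 1.36 and 1.47 CPM in dKO and at 6.46, 2.47 and 3.78 CPM in Dnmt3C KO, a log2 fold change of -1.66 (SE 0.37; adjusted p = 0.00985 in DESeq2). For both, the 3 dKO libraries were close to each other and the Dnmt3C KO libraries were spread, with replicate 1 the highest. Gpat2, a mitochondrial outer membrane protein needed for piRNA production, was at 14.9, 11 and 6.02 CPM in dKO and at 32.7, 23.2 and 24.2 CPM in Dnmt3C KO, a log2 fold change of -1.33 (SE 0.29; adjusted p = 0.00104 in DESeq2). Epcam, an adhesion protein of the spermatogonial surface, was at 13.7, 10.2 and 7.86 CPM in dKO and at 24.0, 17.7 and 20.6 CPM in Dnmt3C KO, a log2 fold change of -0.98 (SE 0.21; adjusted p = 0.00827 in DESeq2). In these last 2 genes dKO replicate 3 was the lowest library, as in the germ cell identity mean.

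The calls with the largest folds were of weakly expressed genes. Efcab1, an EF-hand protein of motile cilia, was at 0.225, 0.278 and 0.397 CPM in dKO and at 1.87, 1.37 and 2.06 CPM in Dnmt3C KO, a log2 fold change of -2.55 (SE 0.39; adjusted p = 0.00105 in DESeq2). The X-linked Xlr was between 0.185 and 0.703 CPM in dKO and between 1.25 and 4.17 CPM in Dnmt3C KO (log2 fold change -2.49, SE 0.57), and the X-linked Fthl17d was between 0.550 and 1.52 CPM against between 2.19 and 5.37 CPM (log2 fold change -2.04, SE 0.47). Both belong to families of near-identical copies, and their values are uncertain for that reason. Tubg2, a gamma-tubulin, was at 2.00, 2.38 and 1.38 CPM in dKO and at 6.23, 4.73 and 4.89 CPM in Dnmt3C KO (log2 fold change -1.46, SE 0.28), again with no overlap.

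Cacna1s had the smallest unadjusted p of the edgeR test (3.5e-05) and little spread within its groups (SD 0.95 CPM in dKO and 0.86 CPM in Dnmt3C KO). This gene encodes the pore subunit of the calcium channel known from skeletal muscle. It was at 28.6, 29.8 and 27.9 CPM in dKO and at 47.3, 46.4 and 45.6 CPM in Dnmt3C KO, a log2 fold change of -0.69 (SE 0.10; adjusted p = 0.398 in edgeR and 0.00104 in DESeq2). The WT libraries, at 32.7 and 33.3 CPM, and the Nrf1 cKO libraries, at 32.8, 32.1 and 23.2 CPM, lay nearer to dKO than to Dnmt3C KO. Of the 8 tested members of the skeletal muscle list, 4 lay below 0, with a median log2 fold change of 0.0041.

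Lower calls also included Plac9b, Rps4l, Gm1673 and Npdc1, with log2 fold changes of -1.29, -0.74, -0.99 and -0.76. Rps4l is annotated as a processed pseudogene of a ribosomal protein gene, and Plac9b has a near-identical copy, Plac9a, so both are uncertain. Plac9b ranged from 0.62 to 38.5 CPM within the Nrf1 cKO libraries alone, a wider spread than the difference between dKO (12.2 to 14.9 CPM) and Dnmt3C KO (20.1 to 44.4 CPM).

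A single gene was called higher. Fbln2, which encodes the extracellular matrix protein fibulin-2, was at 142, 196 and 179 CPM in dKO and at 81.7, 118 and 88.8 CPM in Dnmt3C KO, with a log2 fold change of 0.84 (SE 0.17; adjusted p = 0.675 in edgeR and 0.00416 in DESeq2). Its WT libraries were at 151 and 96.7 CPM and overlapped both groups. Among protein-coding genes with a mean of at least 1 CPM, the others of the 12 with the smallest unadjusted p on the higher side were Ptger2, Kcnt1, Klhdc7a, Kdm8, Adamts9, Pik3r1, Scrn3, Cacna1c, Pitpnm3, Fgf11 and Pak3, with log2 fold changes between 0.44 (Pik3r1) and 1.21 (Ptger2) and none called. Ptger2, a receptor for prostaglandin E2, was at 4.19, 4.60 and 5.65 CPM in dKO and at 1.72, 2.24 and 2.26 CPM in Dnmt3C KO (SE 0.25, adjusted p = 0.017 in DESeq2). Adamts9, a matrix protease, was at 162, 197 and 192 CPM against 124, 137 and 134 CPM (log2 fold change 0.48, SE 0.11, adjusted p = 0.17 in DESeq2). On the lower side the same rule added Pdcd5 (log2 fold change -0.59, SE 0.11) and Zfp428 (log2 fold change -0.66, SE 0.13) to the called genes.

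**Figure D2:**
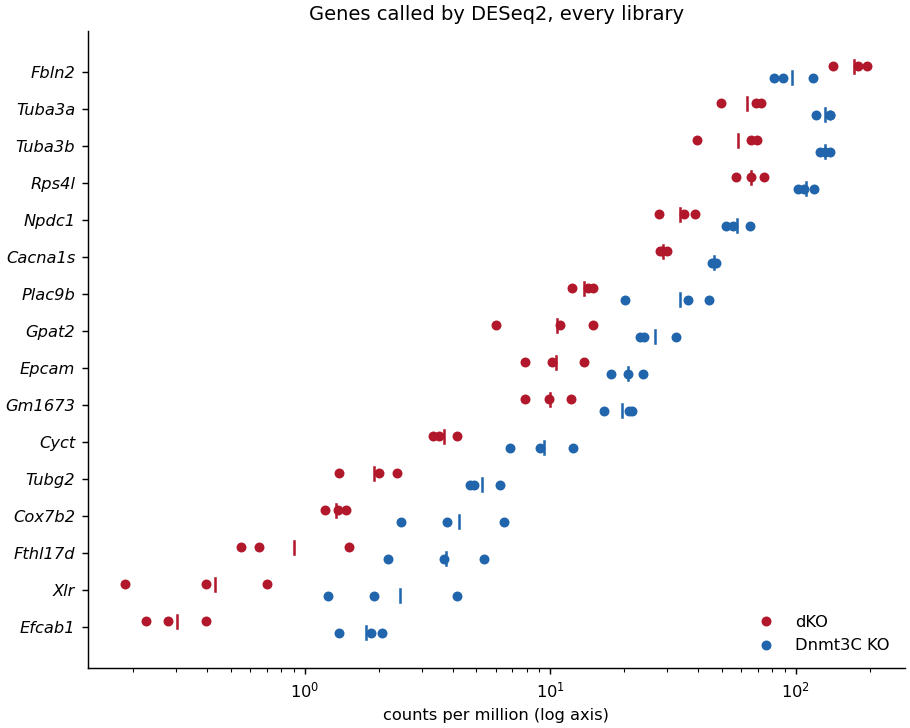
CPM on a log axis for 16 of the genes called by DESeq2, with a dot for each of the 3 dKO (red) and 3 Dnmt3C KO (blue) libraries and a bar at each group's mean. In every gene shown the groups do not overlap; 15 genes are lower in dKO and Fbln2 is higher.

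The call count of DESeq2 rested on single libraries. Without dKO replicate 1, 152 genes were called, and without Dnmt3C KO replicate 1, 3 were called, of which Tuba3a and Tuba3b were among the 17. Without dKO replicate 2, dKO replicate 3, Dnmt3C KO replicate 2 or Dnmt3C KO replicate 3 the counts were 14, 11, 29 and 5. The edgeR count was 0 in each of these fits.

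Genes of germ cell identity were lower in dKO as a group, in median though not by any edgeR call. The list, which holds Tuba3a and Tuba3b, was chosen with earlier results of these data known. Its counts are therefore a description and not an independent test. All 29 tested members of the 30-gene list had a log2 fold change below 0, with a median of -0.91 against 0.01 for all genes, and 17 had an unadjusted p under 0.05 (58.6%, against 4.23% of all genes). DESeq2 called 2 of them, Tuba3a and Tuba3b (against 0.0659% of all genes it tested), and all dKO libraries lay below all Dnmt3C KO libraries for 9 (against 7.15%). The mean log2 CPM of the list was 3.75, 3.29 and 2.34 in the dKO libraries and 4.58, 3.76 and 3.95 in the Dnmt3C KO libraries, or 3.13 ± 0.72 and 4.10 ± 0.43 (SD, n = 3 each), a difference of -0.97. The groups nearly touched, with dKO replicate 1 and Dnmt3C KO replicate 2 at almost the same level. Dnmt3C KO replicate 1 weighed most on the count: without it 5 members had an unadjusted p under 0.05, and without dKO replicate 1 there were 24, with medians between -0.63 and -1.34 over the 6 fits that left out 1 library. When libraries were scaled to equal summed counts of the list itself, its median was -0.11 and that of all genes 0.98. The piRNA and meiotic lists were then at 0.11 and 0.34. Such scaling shifts all genes by nearly the same amount, so where a list stands against all genes was largely fixed in advance.

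Of the 5 most abundant members, Tuba3a and Tuba3b did not overlap between the groups, as given above, and the other 3 did. Dazl, an RNA-binding protein required for germ cell development, was at 120, 68.1 and 33.3 CPM in dKO and at 176, 96.4 and 107 CPM in Dnmt3C KO, with a log2 fold change of -0.78 (SE 0.39) and overlapping groups. Ddx4, the RNA helicase of germ granules whose promoter drives the Cre, was at 55.4, 52.4 and 27.2 CPM in dKO and at 85.2, 54.8 and 72.0 CPM in Dnmt3C KO (log2 fold change -0.65, SE 0.25). The X-linked RNA export factor Nxf2 was at 67.2, 37.3 and 18.6 CPM in dKO and at 95.1, 53.2 and 50.9 CPM in Dnmt3C KO (log2 fold change -0.70, SE 0.40). In each of these 3 genes dKO replicate 1 was the highest dKO library and lay above at least 1 Dnmt3C KO library, and dKO replicate 3 was the lowest of the 6. The lowest log2 fold change of the list was -1.68 (Rhox13, an X-linked homeobox gene), and the highest was -0.25.

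Of 29 tested genes of undifferentiated spermatogonia, 21 lay below 0 (against 48.3% of all genes), 5 with an unadjusted p under 0.05 (against 4.23%), and the median log2 fold change was -0.21. The median moved with single libraries. Without dKO replicate 2 it was -0.74, with 24 members below 0 and 14 past that p. Without dKO replicate 1 the median was -0.03, with 8 members lower and 1 higher at that p. Genes named for the stem cell state were on both sides: Gfra1, the receptor for GDNF, was at 12.8, 31.7 and 13.4 CPM in dKO and at 15.1, 24.1 and 19.7 CPM in Dnmt3C KO (log2 fold change -0.03, SE 0.33), and Etv5, a transcription factor downstream of that receptor, had a log2 fold change of 0.24 (SE 0.21). Nanos2 and Pou5f1, regulators of undifferentiated germ cells, had values of -1.22 and -0.85, each with an unadjusted p under 0.05. The most abundant members of this list, Itga6 and Mcam, are also expressed by somatic cells, and had log2 fold changes of 0.31 and -0.03.

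Of 15 tested genes of differentiating spermatogonia, 12 lay below 0 (against 48.3% of all genes) and 3 were lower at an unadjusted p under 0.05 (against 4.23%), with a median of -0.49. Sohlh1 and Sohlh2, transcription factors of spermatogonial differentiation, had log2 fold changes of -0.91 and -1.07 with an unadjusted p under 0.05. Uchl1, a ubiquitin hydrolase of spermatogonia, was at 71.5, 54.9 and 39.5 CPM in dKO and at 140, 64.8 and 79.6 CPM in Dnmt3C KO, with overlapping groups (log2 fold change -0.78, SE 0.29). Kit, the receptor for stem cell factor, had a value of -0.39 (SE 0.24). Of the more abundant members, Kdm5b, a histone demethylase, had a log2 fold change of 0.09, the cyclin gene Ccna2 of 0.13 and Dmrt1, a transcription factor that Sertoli cells also express, of -0.0037. The summed level of the list was 1013, 1303 and 1003 CPM in dKO and 1082, 1035 and 976 CPM in Dnmt3C KO, and the groups overlapped. Ccnd2, a cyclin that somatic cells of the testis express as well, was higher than in Dnmt3C KO in all 3 dKO libraries (log2 fold change 0.44, SE 0.16), and was the 1 member on that side with an unadjusted p under 0.05. Without dKO replicate 2 the median of this list was -0.44 with 1 member lower at that p, without dKO replicate 1 it was -0.80 with 7, and without Dnmt3C KO replicate 1 it was -0.25 with 0.

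The piRNA pathway, which makes the small RNAs that direct DNA methylation to retrotransposons, had 26 of its 28 members below 0, with a median log2 fold change of -0.72 and 12 members with an unadjusted p under 0.05, where 48.3% of all genes lay below 0 and 4.23% were lower at that p. DESeq2 called Gpat2 among them. Asz1, Gtsf1 and Tdrd12, which act in germ granules or with PIWI proteins, had log2 fold changes of -1.55, -1.40 and -1.21. Mael, a germ granule protein, was at 42.2, 28.7 and 17.5 CPM in dKO and at 78.8, 41.8 and 52.6 CPM in Dnmt3C KO (log2 fold change -0.97, SE 0.31). Tex15, a nuclear factor of piRNA-directed silencing, was at 86.2, 33.7 and 20.7 CPM in dKO and at 108, 62.0 and 63.5 CPM in Dnmt3C KO (log2 fold change -0.73, SE 0.44). Piwil2, a PIWI protein, had a value of -0.36 (SE 0.23) and Fkbp6, a chaperone of piRNA loading, of -0.64 (SE 0.25). In Mael, Tex15 and Piwil2 the groups overlapped, and in Fkbp6 they did not. The count of 12 fell to 2 without Dnmt3C KO replicate 1 (median -0.45), to 5 without dKO replicate 3 (median -0.42) and to 8 without dKO replicate 2, and it was 17 without dKO replicate 1.

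Genes of the meiotic chromosome axis, synapsis and recombination are already transcribed at a low level in spermatogonia. Of 31 tested members, 27 lay below 0 (against 48.3% of all genes) and 10 had an unadjusted p under 0.05 (against 4.23%), with a median log2 fold change of -0.60. The count of 10 was 3 without Dnmt3C KO replicate 1 (median -0.34), 5 without dKO replicate 3 (median -0.32), 5 without dKO replicate 2, and 16 without either dKO replicate 1 or Dnmt3C KO replicate 2. The X-linked meiotic gene Tex11 was at 17.7, 9.67 and 7.31 CPM in dKO and at 28.8, 15.8 and 20.6 CPM in Dnmt3C KO (log2 fold change -0.91, SE 0.32). The cohesin subunits Stag3 and Smc1b had values of -0.74 (SE 0.37) and -0.60 (SE 0.28), and the synaptonemal complex genes Syce1 and Syce2 of -1.69 and -0.31. The germ cell identity list shares 6 members with the piRNA list and 4 with this one, so the lists do not measure independent genes. Over all genes of chromosome X, 61 of 827 (7.38%) were lower in dKO at an unadjusted p under 0.05 and 18 (2.18%) higher.

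**Figure D3:**
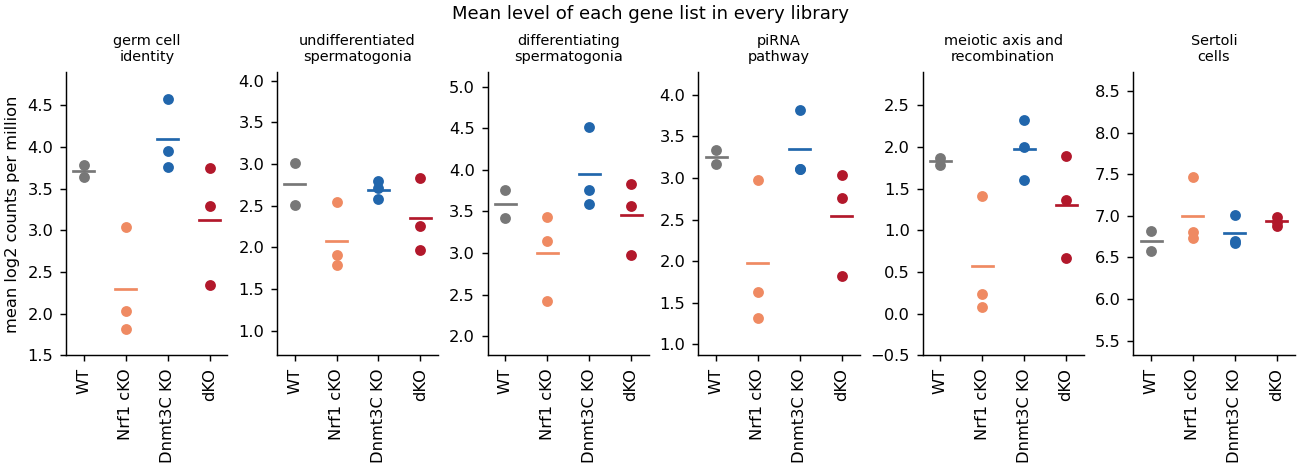
Mean log2 CPM of 6 gene lists, with a dot for each library of the 4 genotypes and a bar at the group's mean; every panel spans the same range of log2 units. The germ cell identity mean is 3.13 in dKO and 4.10 in Dnmt3C KO, and the Sertoli cell panel shows no such gap.

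Somatic lists had medians near or on both sides of 0. Sertoli cell genes had a median log2 fold change of 0.23 over 21 members, with 3 higher at an unadjusted p under 0.05 (Fshr, Dhh and Gata4, against 3.10% of all genes) and 0 lower. Without Dnmt3C KO replicate 2 there were 9 higher, and without Dnmt3C KO replicate 1 or 3 there were 0. Inha, the alpha subunit of inhibin, was at 922, 1047 and 1043 CPM in dKO and at 557, 1198 and 770 CPM in Dnmt3C KO, with overlapping groups, and Amh, anti-Müllerian hormone, was at 351, 825 and 401 CPM against 266, 655 and 228 CPM (log2 fold change 0.45, SE 0.42). Leydig cell genes had a median of 0.01 over 15 members (-0.22 with 4 lower without dKO replicate 3, and 0.093 without dKO replicate 1), with the steroid enzyme gene Cyp17a1 (-0.77) and the hormone gene Insl3 (-0.63) lower and the regulator Nr5a1 (0.27) higher at an unadjusted p under 0.05, where 4.23% of all genes were lower and 3.10% higher. Peritubular and smooth muscle genes had a median of -0.28 over 10 members, of which 8 lay below 0, 2 were lower at an unadjusted p under 0.05 (20%, against 4.23% of all genes) and 3 did not overlap (against 7.15%). Their median was -0.090 with 0 lower without Dnmt3C KO replicate 1, and -0.45 with 5 lower without Dnmt3C KO replicate 2. Among them Acta2, smooth muscle actin, was at 1012, 827 and 1014 CPM in dKO and at 1402, 1054 and 1222 CPM in Dnmt3C KO (log2 fold change -0.37, SE 0.16). Endothelial, macrophage and red blood cell lists had medians of -0.12, -0.43 and -0.24, with 0, 1 and 0 members past an unadjusted p of 0.05, and adipocyte, epididymal and Schwann cell lists had medians of -0.07, 0.26 and 0.05 with 0. Of the 14 macrophage genes 13 lay below 0. Without dKO replicate 3 all 14 did, 9 with an unadjusted p under 0.05 and a median of -0.73, and 4 of 7 red blood cell genes passed that p, with a median of -0.74. Without dKO replicate 2 these medians were -0.14, with 11 of 15 macrophage genes below 0, and 0.064. The endothelial median was 0.15 without dKO replicate 2, and the epididymal median was between -0.34 without dKO replicate 2 and 1.53 without Dnmt3C KO replicate 2. The germ cell lists moved beside these somatic values, and the part of tissue composition in them was not tested.

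Of 14 tested niche genes, which encode signals from somatic cells to spermatogonia, 12 lay at or above 0, with a median of 0.14, and Kitl, which encodes stem cell factor, had the only unadjusted p under 0.05 (log2 fold change 0.30, SE 0.13). Without dKO replicate 3 the niche median was -0.045, with 8 members below 0. In the list of p53 targets and apoptosis genes, 3 of 25 members were higher at an unadjusted p under 0.05: Gdf15 (0.75), Apaf1 (0.36) and Zmat3 (0.28), with a median of 0.12 and 0 members lower (3.10% of all genes were higher at that p). The count of 3 was 0 without dKO replicate 2 or Dnmt3C KO replicate 1, and 1 without dKO replicate 3, Dnmt3C KO replicate 2 or Dnmt3C KO replicate 3. Trp53 itself was at 101, 127 and 112 CPM in dKO and at 95.7, 96.6 and 102 CPM in Dnmt3C KO (log2 fold change 0.20, SE 0.11). Interferon response genes had a median of -0.17, with 3 of 27 lower at that p (against 4.23% of all genes), and without Dnmt3C KO replicate 3 their median was 0.12, with 9 members below 0 and 1 lower at that p. The DNA methylation and H3K9 silencing list had a median of 0.11, or -0.026 without dKO replicate 2, with 16 of 29 members below 0. Its lowest members were the germ cell genes Dnmt3l (-0.77), the cofactor of de novo methylation, and Morc1 (-0.70), a repressor of retrotransposons. DNA replication and cell division genes had a median of 0.07, with 0 of 30 members past an unadjusted p of 0.05. Without dKO replicate 2 their median was -0.067, with 23 members below 0 and 2 lower at that p, and without Dnmt3C KO replicate 1 it was -0.047, with 21 below 0 and 1 lower, while without dKO replicate 1 there were 2 higher.

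Nuclear genes of oxidative phosphorylation, the classical targets of NRF1, were lower in dKO as a group by a small amount. Of 86 tested members, 81 lay below 0, 38 had an unadjusted p under 0.05 (44.2%, against 4.23% of all genes) and 39 did not overlap between the groups (against 7.15%), while 0 were higher at that p. The median log2 fold change was -0.28. It was 0.67 against 0.98 for all genes when libraries were scaled to equal germ cell identity counts, which shifts all genes by nearly the same amount. Ndufs8, a complex I subunit, was at 89.4, 65.7 and 72.8 CPM in dKO and at 116, 105 and 99.6 CPM in Dnmt3C KO (log2 fold change -0.49, SE 0.13). Cox7c, a complex IV subunit, was at 161, 120 and 134 CPM against 208, 177 and 194 CPM (log2 fold change -0.48, SE 0.13), and Atp5j2, an ATP synthase subunit, at 179, 133 and 152 CPM against 233, 200 and 208 CPM (log2 fold change -0.46, SE 0.13). In these 3 genes, chosen after their values were seen, dKO replicate 2 was the lowest library. The most abundant members, the ATP synthase genes Atp5b, Atp5a1 and Atp5c1, had values of -0.02, -0.01 and -0.16, each with an SE of 0.13. The lowest 2 members, Cox8c (-1.91) and Cox7b2 (-1.66), are testis forms.

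Mitochondrial ribosomal protein genes had a median of -0.19 over 78 members, with 23 lower at an unadjusted p under 0.05 (against 4.23% of all genes) and 0 higher, and proteasome genes a median of -0.21 over 38 members, with 10 lower and 0 higher. Without Dnmt3C KO replicate 1 these counts were 8 and 4, and without dKO replicate 2 they were 13 and 4. Over all fits that left out 1 library they ranged from 8 to 34 (without dKO replicate 1) and from 4 to 16 (also without dKO replicate 1). Mrpl52 and Psmb4, for example, had log2 fold changes of -0.35 (SE 0.13) and -0.27 (SE 0.12), and the lowest proteasome member, Psma8 (-1.05), is the testis form of a core subunit. Of 21 genes of NRF1 and mitochondrial transcription, 0 had an unadjusted p under 0.05 and the median was -0.03, which was -0.15 with 1 member lower without dKO replicate 1 and 0.036 without dKO replicate 3. Cycs, whose promoter stretch is printed with the other sequences, was at 273, 177 and 236 CPM in dKO and at 310, 256 and 276 CPM in Dnmt3C KO (log2 fold change -0.30, SE 0.16). Pprc1, an NRF1 coactivator, and Polg, the mitochondrial DNA polymerase, had values of 0.02 (SE 0.16) and 0.11 (SE 0.13). The 13 protein genes of the mitochondrial genome had a median of -0.03, which was 0.19 without dKO replicate 2, with 3 genes below 0, and -0.27 without dKO replicate 3, with 12 below 0 and 4 past an unadjusted p of 0.05.

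Transcript length moved with the oxidative phosphorylation result. Over all protein-coding genes tested, the median log2 fold change was -0.09 for transcripts under 1000 bases (2696 genes, of which 308, or 11.4%, were lower at an unadjusted p under 0.05) and 0.14 for those of 4000 bases or more (2732 genes, of which 23 were lower and 254 higher). Cytosolic ribosomal protein genes, which are short, lay below 0 in 76 of 76 cases, with a median of -0.26. Within the oxidative phosphorylation list, the 66 genes under 1000 bases had a median of -0.30 and the 19 longer ones of -0.14. Within the proteasome list the 13 genes under 1000 bases and the 25 longer ones had the same rounded median of -0.21, with 2 and 8 lower at an unadjusted p under 0.05. Short genes outside these lists, 2519 in number, had a median of -0.07. Levels were then taken relative to each gene's mean over the 6 libraries, for more abundant genes only (1911 short and 2048 long). Short minus long transcripts stood at -0.27 log2 units in dKO replicate 2, the lowest of the 6 libraries. The value was 0.04 and -0.09 in the other dKO libraries, against 0.06, 0.15 and 0.10 in Dnmt3C KO. Without dKO replicate 2 the median of the oxidative phosphorylation list was -0.20 with 23 members lower at an unadjusted p under 0.05, and without Dnmt3C KO replicate 1 there were 19, without Dnmt3C KO replicate 3 there were 23, and over all fits that left out 1 library there were between 19 and 47. The part of transcript length in this result was not tested.

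**Figure D4:**
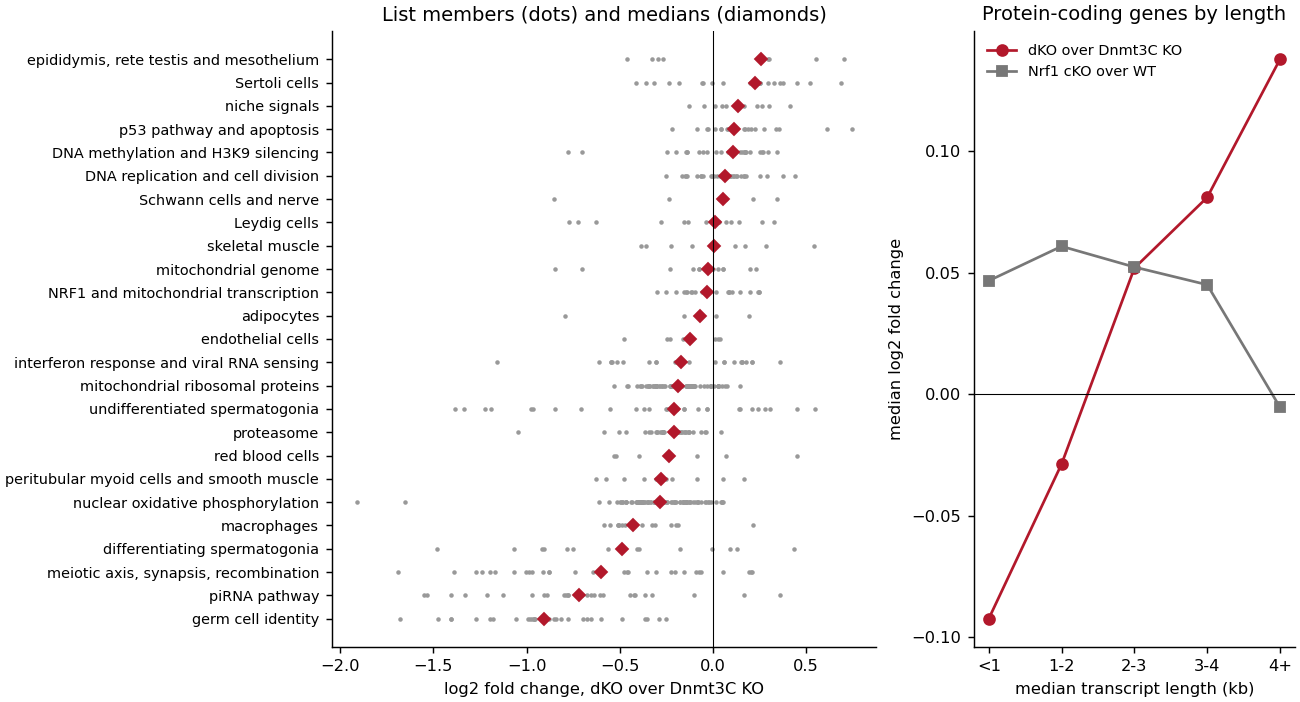
Left, the log2 fold change of dKO over Dnmt3C KO for each tested member (dots) of 25 gene lists and each list's median (diamonds), ordered by median from germ cell identity (-0.91) upward. Right, the median log2 fold change of protein-coding genes in 5 classes of transcript length, which goes from -0.09 to 0.14 in dKO over Dnmt3C KO (circles) and from 0.05 to -0.0053 in Nrf1 cKO over WT (squares).

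Deletion of Nrf1 with Dnmt3C intact gave values for the same genes in libraries that are not shared. In Nrf1 cKO over WT, edgeR called 0 of 20433 genes, with 653 lower and 326 higher at an unadjusted p under 0.05, and DESeq2 called 22 lower (0.0955% of 23027 tested) and 3 higher. The study reported far more differing protein-coding genes for this pair, also with more lower than higher. The reason for this difference in number was not tested. Tuba3a and Tuba3b were called by DESeq2 in both comparisons, which is 11.8% of the 17 calls here and 8% of the 25 there. Tuba3a was at 51.9, 46.8 and 35.5 CPM in Nrf1 cKO and at 137 and 106 CPM in WT, a log2 fold change of -1.45, and Cyct had a value of -1.68, Gpat2 of -1.06 and Epcam of -0.85. Of the 17 called genes, 13 had the same sign in Nrf1 cKO over WT. The exceptions were Plac9b (0.38), Gm1673 (0.17), Npdc1 (0.07) and Rps4l (0.01), and Cacna1s was near 0 at -0.18 (SE 0.20).

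Over all genes tested in both comparisons, 823 were lower in dKO at an unadjusted p under 0.05, and 67.7% of them lay below 0 in Nrf1 cKO over WT, against 47.3% of all genes. Of these 823, 112 were also lower in Nrf1 cKO at that p, which is 13.6% of the genes lower in dKO and 17.9% of those lower in Nrf1 cKO, where 3.21% of all genes were lower in Nrf1 cKO at that p. Of the 614 genes higher in dKO, 61.2% lay above 0 in Nrf1 cKO over WT, against 52.7% of all. The germ cell identity list had medians of -0.91 in dKO over Dnmt3C KO and -1.32 in Nrf1 cKO over WT, the piRNA list -0.72 and -1.05, and the meiotic list -0.60 and -1.10. The oxidative phosphorylation list had medians of -0.28 and 0.03, with 1 of its members lower and 1 higher at an unadjusted p under 0.05 in Nrf1 cKO over WT.

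The difference between backgrounds was tested gene by gene, and the differences between list medians were not tested. The interaction test on all 11 libraries called 0 of 21690 genes by edgeR (smallest adjusted p 0.895, with 574 positive and 421 negative at an unadjusted p under 0.05) and 0 by DESeq2. For Tuba3a the interaction was 0.39 (SE 0.26), for Tuba3b 0.66 (SE 0.46), for Gpat2 -0.27 (SE 0.75) and for Cacna1s -0.52 (SE 0.20, unadjusted p = 0.021 in edgeR). The interaction was -1.16 for Gm1673 (SE 0.29, unadjusted p = 0.0016 and adjusted p = 0.895 in edgeR). For Rps4l it was -0.75 (SE 0.23, unadjusted p = 0.0056 and adjusted p = 0.895 in edgeR), and for Npdc1 -0.85 (SE 0.30, unadjusted p = 0.015 and adjusted p = 0.895 in edgeR). In the germ cell identity list 2 members had a positive interaction at an unadjusted p under 0.05 and 0 a negative one. In the oxidative phosphorylation list 0 had a positive and 6 a negative one. The list medians were 0.48 and -0.32, against -0.03 for all genes. Lower medians than -0.32 occurred in the endothelial (-0.69), macrophage (-0.62), adipocyte (-0.49) and peritubular (-0.37) lists. The meiotic and red blood cell medians were 0.48 and 0.61. No single gene is therefore shown to respond in 1 background and not in the other.

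**Figure D5:**
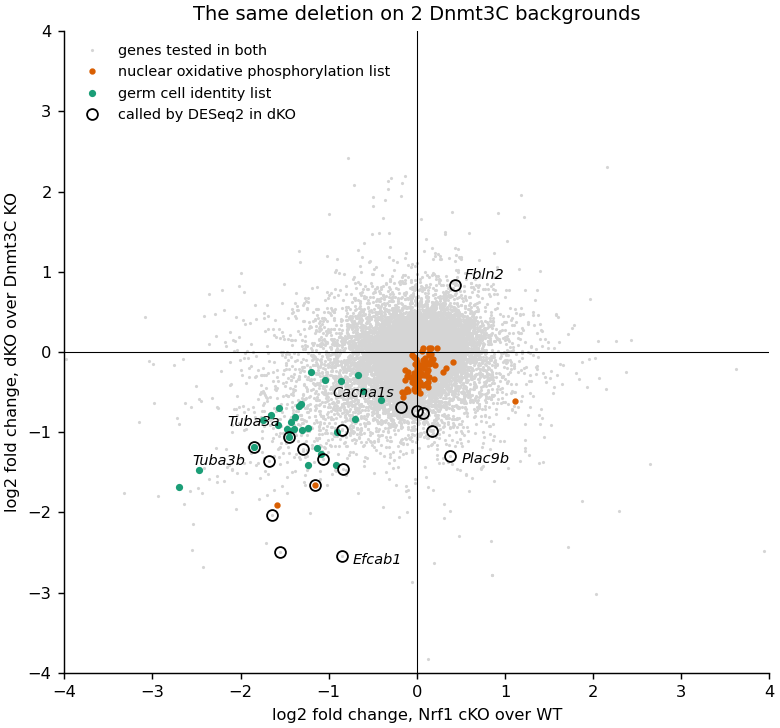
Log2 fold change of each gene in Nrf1 cKO over WT (x axis) against that in dKO over Dnmt3C KO (y axis), which share no library; 2 genes lie outside the axes. The germ cell identity list (green) lies below 0 on both axes, while the oxidative phosphorylation list (orange) lies mostly below 0 on the y axis and around 0 on the x axis.

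The NRF1 core was looked for in the promoters of the genes tested. RefSeq windows were found for 12865 of them, and the letters CGCATGCG, which read the same on both strands, occurred in 492 (3.82%). With the middle base free (CGCANGCG, either strand, which includes the first form), 2206 windows (17.1%) held a match. Among the 609 genes with a window that were lower in dKO at an unadjusted p under 0.05, 48 (7.88%) held CGCATGCG and 164 (26.9%) the freer form, and among 449 higher genes 6 (1.34%) and 47 (10.5%) did. Genes with CGCATGCG had a median log2 fold change of -0.0092, and genes without it 0.03. By list, the freer form occurred in 10 of 20 piRNA genes, 7 of 26 germ cell identity genes, 8 of 27 meiotic genes and 27 of 69 oxidative phosphorylation genes (39.1%). It also occurred in 8 of 18 genes of NRF1 and mitochondrial transcription (44.4%) and in 9 of 27 DNA methylation and H3K9 silencing genes (33.3%), lists with medians of -0.03 and 0.11. Within the oxidative phosphorylation list, genes with the freer form had a median of -0.25 and genes without it of -0.29. Of the 14 called genes with a window, 4 held it, Npdc1 and, with the stretches printed above, Gpat2, Tuba3b and Tubg2. A match says only that these letters stand in the window.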

How the data were processed

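The authors aligned poly-A reads of whole testes to GRCm38 (STAR 2.7.3a), assigned them to genes and transposable element subfamilies with TEtranscripts, sharing out multi-mapping reads and counting by strand, and deposited the raw counts of each genotype pair. The authors' own DESeq2 1.44.0 comparison in the same tables (log2 fold change, p-value, adjusted p-value and mean) was not used. Groups follow the genotype labels. Total counts were between 31288561 and 39365841 per library, which bounds the counting error only. Replicates differed by more than sampling noise (chi-square per degree of freedom between 17.6 and 54.4). The study describes the libraries as biological replicates, from testes of mutants and littermates collected in triplicate per genotype, and p-values measure the spread between them. It excluded replicates of poor RNA quality, and the RNA quality of the libraries used here was not examined.

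The 3 dKO and 3 Dnmt3C KO libraries were compared with edgeR 4.0.16 under R 4.3.3 (filterByExpr, TMM, glmQLFit, glmQLFTest), genes and TE subfamilies in 1 fit, with Benjamini-Hochberg adjustment and a threshold of 0.01. The DESeq2 1.42.0 Wald test was an alternative. CPM use TMM factors of all 11 libraries, with 1 added as prior count before logs. Gene positions, types and transcript lengths are from GENCODE M21, which held 31282 of the gene rows. Scripts were tested on simulated data. The members and gene lists were chosen with earlier results of these data known. Named were the targeted genes, the genes with the smallest p up to 12 in each direction (protein-coding, mean of at least 1 CPM), and the 3 most abundant members of each list, or 5 of germ cell lists. The DESeq2 calls, of which 1 is not reported here, and other list members were named after their values were seen. The alternatives were other size factors, the DESeq2 test, no filter, gene rows only, all 11 libraries in 1 fit, scaling to the germ cell identity list, the replicate block, an adjusted p under 0.05 and leaving out each library. The second germ cell scaling, adjusted deviances and further DESeq2 fits were added after seeing the data.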

Additional observations from a re-analysis of the deposited data

How the results depend on the processing

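The count of 0 genes called by edgeR between dKO and Dnmt3C KO became 17 with the DESeq2 Wald test, 9 with scaling to equal summed counts of the germ cell identity list and 3 with scaling to its mean log2 level; it was 0 in every fit that left out 1 library. The DESeq2 count of 17 became 32 at an adjusted p under 0.05 and 1 with all 11 libraries in 1 fit, and ranged from 3 to 152 without single libraries. The interaction count was 0, or 1 without WT replicate 1 (range 0 to 1). The count for Nrf1 cKO over WT was 0 with edgeR, 25 with DESeq2 and 134 without the filter on low counts, with a range of 0 to 25 without single libraries (25 without Nrf1 cKO replicate 1, 4 without WT replicate 1). The cause of these differences was not tested. After group means were removed, same-numbered dKO and Dnmt3C KO libraries had correlations of 0.22, -0.02 and -0.01. Only dKO replicate 1 correlated best with its own number. With so few libraries these values cannot decide whether same-numbered libraries are pairs. The study used littermate controls where possible, and which libraries are littermates was not established here. With the replicate block, edgeR called 0 and DESeq2 153 genes in dKO over Dnmt3C KO, 16 of the 17 among them, and edgeR called 81 in Nrf1 cKO over WT; Pprc1 was at -0.00148.

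Scaling to equal summed counts of the germ cell identity list moved the median of all genes to 0.98 (1.06 with the mean log2 level), and genes of smaller negative change then had a positive log2 fold change, by the construction of that scaling. These were Cacna1s (0.27), Npdc1 (0.27), Pdcd5 (0.38), Zfp428 (0.30), Rps4l (0.18), Dazl (0.0081), Ddx4 (0.21), Nxf2 (0.094), Mcam (0.97), Dmrt1 (0.93), Uchl1 (0.15), Tex15 (0.025), Fkbp6 (0.23), Piwil2 (0.60), Syce2 (0.63), Stag3 (0.11), Smc1b (0.26), Clu (0.91), Hsd3b1 (0.90), Acta2 (0.65), Myl9 (0.75), Myh11 (0.82), Cycs (0.68), Atp5b (0.95), Atp5a1 (0.93), Atp5c1 (0.80), Ndufs8 (0.46), Cox7c (0.48), Atp5j2 (0.50), Psmd2 (0.93), Psmc3 (0.66), Psmb4 (0.69), Mrpl24 (0.73), Mrpl52 (0.58), Mrpl37 (0.96), Gfra1 (0.83), Kit (0.58), Pou5f1 (0.054), Cyp17a1 (0.27), Insl3 (0.35), Morc1 (0.14) and Dnmt3l (0.052). Single libraries turned the sign of genes near 0. The ranges over the fits that left out 1 library were -0.20 to 0.11 for Mcam, -0.12 to 0.40 for Etv5, -0.016 to 0.23 for Foxo1, -0.10 to 0.18 for Kdm5b, -0.067 to 0.22 for Ccna2, -0.18 to 0.0899 for Dmrt1, -0.047 to 1.09 for Amh, -0.30 to 0.11 for Hsd3b1, -0.19 to 0.14 for Pprc1, -0.041 to 0.19 for Polg, -0.0802 to 0.047 for Atp5b, -0.068 to 0.081 for Atp5a1, -0.10 to 0.021 for Psmd2, -0.056 to 0.016 for Mrpl37, -0.00850 to 0.10 for Sesn1, -0.048 to 0.16 for Ccng1 and -0.60 to 0.18 for Gfra1. The germ cell identity difference was between -1.28 and -0.58 without single libraries; scaling to the list itself fixes it near 0 by construction. Depth limits genes whose dKO libraries lie under 1 CPM, such as Efcab1 and Xlr.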
